A study of Mus musculus with 16 samples.

Results

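Voltage-gated calcium and sodium channels open when the membrane is depolarised, and the genes that encode them were described here in cultured mouse islets. Members were the protein-coding genes whose symbol starts with Cacna, Cacnb or Cacng, or with Scn and a digit, and that had at least 10 counts in at least 4 of the 16 libraries. The rule kept 34 of the 40 such genes in the table of 52636 genes: 22 calcium channel genes and 12 sodium channel genes. The member closest to the limit was Scn4b, with 10 or more counts in 5 libraries, followed by Cacng3 and Cacng8 with 6 libraries each. Just outside stood Scn10a with 1 library, while Cacna1s, Cacng1, Cacng5 and Cacng6 had 10 or more counts in 0 libraries.

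Pancreatic islets contain the beta cells, which secrete insulin, together with other hormone-secreting cells. Islets of 12-week-old male mice (C57BL/6JRj in the sample labels, C57BL/6NRj in the published methods) were cultured for 10 days in 4 ways: with no addition (control), with 50 pg/mL recombinant mouse IL-1β, a pro-inflammatory cytokine, with 0.2 mM sodium butyrate, a short chain fatty acid that inhibits histone deacetylases, or with both agents. Each of the 4 conditions had 4 replicate libraries. Each of the 16 RNA libraries came from 500 islets pooled from several mice, so that a replicate is not an animal. The published text calls the replicates independent experiments and reads as if the conditions shared them. It does not state which libraries came from the same experiment. A library held 18635943 to 25955943 counts. Summed CPM of 8 beta cell markers was 214385 to 237179 in control and 137754 to 179437 with IL-1β. Of these markers IL-1β lowered 6 and raised 1. All 6 macrophage markers rose with IL-1β, from a summed 14.2 to 23.6 CPM to 66.5 to 116 CPM (30.01 to 65.1 CPM with both agents). Summed duct cell markers went from 340.3 to 367 CPM in control to 499 to 597 CPM with IL-1β, mostly through Spp1 (mean 11.9 to 158 CPM), while Krt7 rose 1.17-fold and Krt19 and Sox9 were not called, and 4 of 4 markers of dividing cells fell with butyrate. Summed CPM of 8 neuron markers was 68.9 to 83.5 in control, 58.3 to 67.2 with IL-1β, 91.6 to 120 with butyrate and 65.0 to 97.6 with both agents. With butyrate alone Th rose (mean 21.1 to 62.3 CPM) and Nefm fell (47.0 to 39.6 CPM), the calls among the neuron markers. Summed delta cell markers were 1696 to 1995 CPM in control and 2395 to 2775 with butyrate. This was mostly through Sst (mean 1650 to 2418 CPM), which was called as raised, while Hhex, Rbp4 and Ghsr were not called. Ppy, the PP cell marker, was 1374 to 2053 CPM in control and 2207 to 2753 CPM with butyrate (not called). The part of these shifts in the results that follow was not tested, and in whole islets fewer cells of a type and less RNA per cell cannot be told apart.

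The pore-forming α1 subunit of a calcium channel sets its type. In channels of the L, N and P/Q types, a cytosolic β subunit and an extracellular α2δ subunit carry it to the membrane. In beta cells, closure of ATP-sensitive potassium channels depolarises the membrane, and calcium entry through L-type and other channels then triggers insulin release. Sodium channels consist of a pore-forming α subunit and small membrane-spanning β subunits, and they shape the action potentials of islet cells. Of the γ genes, Cacng2, Cacng3, Cacng4, Cacng7 and Cacng8 encode proteins best known for binding AMPA-type glutamate receptors.

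RefSeq start site windows (GRCm38.p6) were at hand for 26 of the 34 members, and the 250 bases upstream of the start are shown for members called with butyrate alone, so that the sequence next to the RefSeq start can be read. Of the 5 called members with a window, Cacna2d1 had the smallest change and is not shown. The sequences run 5′ to 3′ along the gene, from chr7:3332575-3332824 (plus strand) for Cacng7, chrX:7606853-7607102 (plus strand) for Cacna1f, chr9:107399630-107399879 (plus strand) for Cacna2d2 and chr2:66634963-66635212 (minus strand) for Scn9a. Capitals mark a CCAAT box (CCAAT) or a GC box (GGGCGG), each on either strand.
Cacng7: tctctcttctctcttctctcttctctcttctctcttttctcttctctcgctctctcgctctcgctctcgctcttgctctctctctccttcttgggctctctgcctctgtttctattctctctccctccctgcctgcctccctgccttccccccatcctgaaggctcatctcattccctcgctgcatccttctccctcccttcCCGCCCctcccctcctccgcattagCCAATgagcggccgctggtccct
Cacna1f: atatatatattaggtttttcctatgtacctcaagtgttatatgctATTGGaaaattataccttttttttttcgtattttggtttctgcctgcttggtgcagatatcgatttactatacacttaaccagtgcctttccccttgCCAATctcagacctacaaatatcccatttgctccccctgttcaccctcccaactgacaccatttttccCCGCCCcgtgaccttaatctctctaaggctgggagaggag
Cacna2d2: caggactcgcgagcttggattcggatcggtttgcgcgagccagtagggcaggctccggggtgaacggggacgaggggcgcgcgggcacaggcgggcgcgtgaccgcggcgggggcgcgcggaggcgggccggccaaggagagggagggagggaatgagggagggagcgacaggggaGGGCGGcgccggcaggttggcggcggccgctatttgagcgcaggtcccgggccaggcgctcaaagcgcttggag
Scn9a: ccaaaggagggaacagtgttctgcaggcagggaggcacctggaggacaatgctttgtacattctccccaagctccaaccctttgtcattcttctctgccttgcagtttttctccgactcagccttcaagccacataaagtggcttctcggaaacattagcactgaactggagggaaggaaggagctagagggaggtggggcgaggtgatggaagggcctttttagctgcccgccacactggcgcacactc

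The Cacng7 stretch held 1 CCAAT box, 1 GC box and 9 CpG sites, and that of Cacna1f held 2 CCAAT boxes and 1 GC box. The Cacna2d2 stretch held 1 GC box and 34 CpG sites with a GC content of 74.4%. The Scn9a stretch held 5 CpG sites and none of the motifs searched. Over all 32851 windows the upstream 250 bases held a CCAAT box in 33.8%, a GC box in 32.7%, a TATA box (TATAAA) in 12.4%, the motif CAGCACC of the neuronal repressor REST in 5.73% and an NF-κB site in 3.9%, both strands searched. Of the 36 windows of members, 9 held a CCAAT box, 13 a GC box, 2 a TATA box, 0 the REST motif and 2 an NF-κB site (Cacnb4 and Scn8a). In 31 of these 36 windows the bases after the start lay in a GENCODE M21 transcript of the gene, and Cacng7 was among the other 5, with a RefSeq start upstream of its first GENCODE base at 3332955. The windows of Cacna1f, Cacna2d2 and Scn9a were among the 31. The Cacna2d2 stretch nevertheless lay inside the GENCODE gene, whose first base is 107399612. So did the last bases of the Cacna1f stretch, from 7607083 on. Which start the islets used was not measured. Members without a window included Cacna1a, Cacna1g, Cacna1h, Cacna2d4, Cacng4, Scn3a and Scn3b.

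Levels were compared between genes as CPM per kilobase of exon, where CPM is the count scaled to a common library size with TMM factors. In control islets the β subunit gene Cacnb3 (22.1 ± 1.24, SD, n = 4) and the α2δ gene Cacna2d1 (20.5) led, and their libraries overlapped. The L-type pore genes Cacna1d and Cacna1c stood at 15.2 and 6.67, the P/Q-type pore gene Cacna1a at 9.56, and the highest sodium channel gene, Scn9a, at 4.57. Of the 33 pairs of neighbours in this order, 25 had overlapping libraries. With the longest transcript as the length, Cacna2d1 (34.2) and Cacnb3 (32.4) changed places and each of the 34 ranks moved by at most 3.

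**Figure D1:**
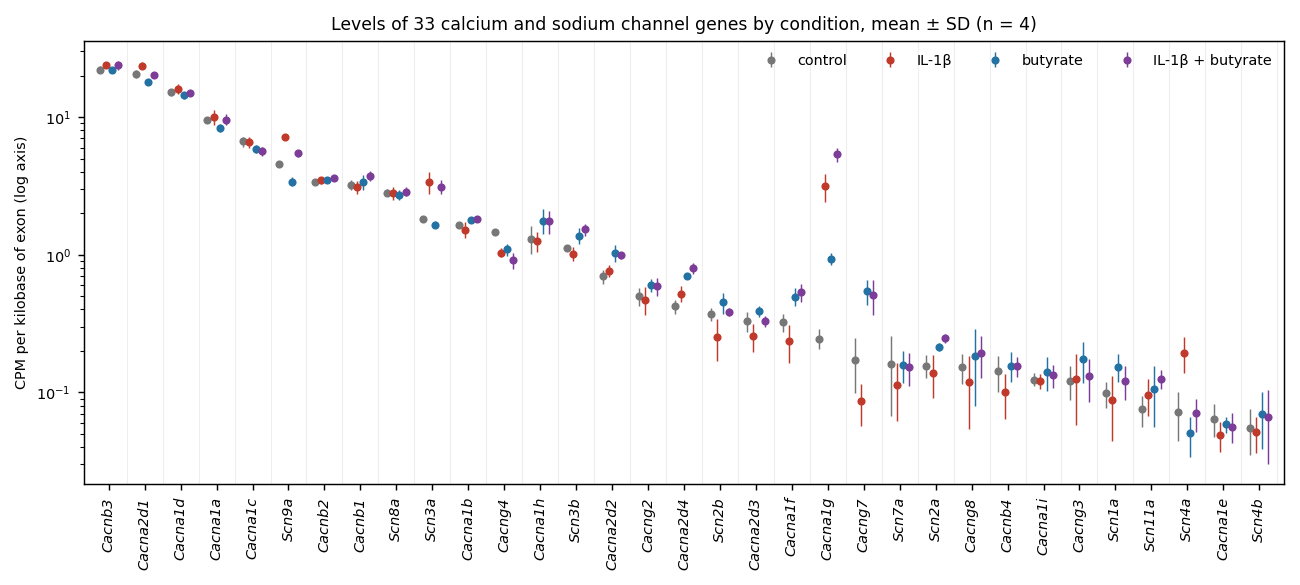
CPM per kilobase of exon (log axis) of 33 members, ordered by their control mean. Points are means and bars the SD of 4 libraries in each condition. Cacna1g rose from 0.246 in control to 3.15 with IL-1β and 5.36 with both agents, past most calcium channel genes.

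Among the 5 genes with the highest levels per kilobase in control, Cacna1d, Cacna1a and Cacnb3 had small fold changes and no call. The others, Cacna1c and Cacna2d1, had small fold changes with calls and are given further below. Cacna1d gave 204, 176, 196 and 190 CPM in control and 209.5, 178, 201 and 217 with IL-1β, 179, 182, 172 and 195 with butyrate and 189, 184, 185 and 203 with both. The conditions overlapped in each comparison, and the 4 log2 fold changes lay between -0.08 and 0.07. Cacna1a libraries read 113, 100.4, 112 and 111 CPM in control, 105, 102, 119.7 and 133 with IL-1β, 93.3, 95.6, 88.8 and 105 with butyrate and 102, 100.3, 115 and 121 with both. No comparison of Cacna1a was called, the nearest being butyrate against control with a log2 value of -0.19 (SE 0.079, edgeR's adjusted p = 0.0822). Cacnb3 stood at 95.99, 87.3, 86.3 and 85.01 CPM in control, 96.9, 97.9, 91.8 and 96.3 with IL-1β, 92.1, 90.96, 85.1 and 87.5 with butyrate and 102, 85.9, 97.5 and 97.3 with both. It was not called either, like the other β genes Cacnb1, Cacnb2 and Cacnb4.

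Across all genes, the comparison of IL-1β with control asked which genes the cytokine changes, and calls were made at an adjusted p under 0.01 by edgeR's quasi-likelihood test with Benjamini-Hochberg adjustment over 18587 genes, of which 33 were members (Scn4b was too low to be tested). IL-1β raised 6 of the 33 members (18.2%, against 11.2% of all genes tested) and lowered 1 (3.03%, against 6.59%). Those raised included the T-type pore gene Cacna1g, the α2δ gene Cacna2d1 and the sodium channel genes Scn3a, Scn4a and Scn9a. The 1 lowered was Cacng4. The median log2 fold change was -0.03 over the members and -0.03 over all genes tested.

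Butyrate was compared with control, and IL-1β plus butyrate with IL-1β, to see what the fatty acid changes without and with the cytokine. Butyrate alone raised 6 members (18.2%, against 8.53% of all genes) and lowered 3 (9.09%, against 11.4%). With IL-1β present, butyrate raised 8 (24.2%, against 8.41%) and lowered 3 (9.09%, against 11.1%). Against control, both agents together raised 10 members (30.3%, against 15.8%) and lowered 2 (6.06%, against 14.8%). The raised counts of these 3 comparisons include Cacng7, which met the rule on counts only through libraries with butyrate. The median log2 fold change of the members was 0.19, 0.31 and 0.15 in these 3 comparisons, beside 0.01, 0.01 and -0.00 over all genes. IL-1β alone, butyrate alone and both agents were set against the same control libraries, and both agents also against the same IL-1β libraries, so the comparisons are not independent of each other.

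**Figure D2:**
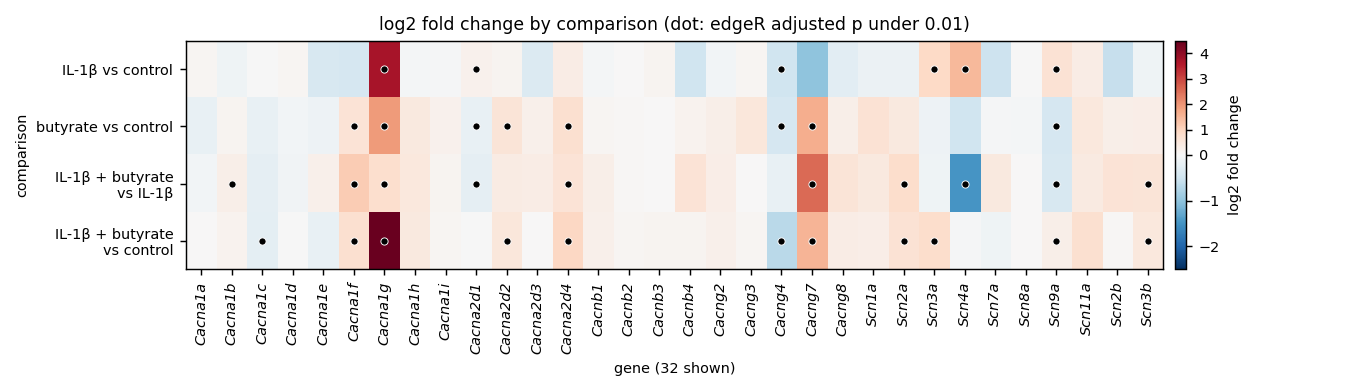
Log2 fold change (colour, with different steps above and below 0) of 32 tested members in 4 comparisons, with genes ordered by subunit class. A dot marks an adjusted p under 0.01. Cacna1g and Scn9a carry a dot in each comparison, the 4 β genes of calcium channels in none.

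Cacna1g had the largest fold change with IL-1β of the members tested. The gene (ENSMUSG00000020866, chromosome 11, 94408391 to 94474198, minus strand) encodes a pore subunit of T-type channels, which open near the resting potential. Its CPM was 2.99, 2.09, 2.25 and 2.65 in the control libraries and 29.7, 27.2, 28.2 and 42.7 with IL-1β. Butyrate alone gave 10.7, 9.28, 8.41 and 9.64 and both agents 56.5, 46.2, 53.1 and 61.5. The 4 conditions did not overlap, in the order control, butyrate, IL-1β and both agents, and the counts behind these values were 47 to 64, 161 to 224, 544 to 1184 and 1089 to 1392. IL-1β raised it 12.9-fold (log2 fold change 3.69, SE 0.19, edgeR's adjusted p = 1.23e-09). Butyrate alone raised it 3.82-fold (log2 fold change 1.93, SE 0.22, edgeR's adjusted p = 1.07e-05). With IL-1β present butyrate raised it 1.69-fold (log2 fold change 0.75, SE 0.13, edgeR's adjusted p = 4.51e-04), a call lost with only the 2 conditions in the fit (edgeR's adjusted p = 0.0120). Both agents against control gave 21.8-fold (edgeR's adjusted p = 5.71e-11).

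The other T-type genes, Cacna1h and Cacna1i, had no call in any comparison. Cacna1h averaged 12.8 ± 2.93 CPM in control and 12.3 ± 2.03 with IL-1β, 17.3 ± 3.57 with butyrate and 17.1 ± 3.25 with both, and Cacna1i was at 1.19 to 1.40 CPM on average. In the pool of the 9 pore genes, summed as CPM per kilobase, Cacna1g made up 0.698 ± 0.0819% in control, 8.04 ± 1.15% with IL-1β, 2.77 ± 0.211% with butyrate and 13.4 ± 0.838% with both (SD, n = 4). The share of Cacna1d was 43.2 ± 0.266% in control and 37.7 ± 1.03% with both agents. The pool itself summed to 35.1 ± 2.16 CPM per kilobase in control and 39.9 ± 2.27 with both.

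Cacna1f, an L-type pore gene best known from the retina (ENSMUSG00000031142, chromosome X, 7607083 to 7635196, plus strand), was low. It gave 2.99, 2.29, 3.15 and 3.296 CPM in control and 1.81, 1.85, 1.76 and 3.104 with IL-1β. With butyrate its CPM was 4.72, 3.82, 4.18 and 5.33, and with both agents 4.79, 3.99, 4.95 and 5.78. Each butyrate library lay above each library without butyrate. Butyrate raised it by a log2 fold change of 0.63 alone (SE 0.17, edgeR's adjusted p = 0.00505, lost in 4 of 14 alternatives) and of 1.15 with IL-1β (SE 0.17, edgeR's adjusted p = 9.72e-06). Leaving out control replicate 2 or butyrate replicate 1 or 4 was enough to lose the first of these calls.

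The remaining calls among the pore genes were small. The N-type gene Cacna1b (ENSMUSG00000004113, chromosome 2, 24603887 to 24763152, minus strand) gave 15.6, 15.97, 16.6 and 17.6 CPM in control, 15.3, 12.7, 15.2 and 17.4 with IL-1β, 17.4, 17.7, 17.7 and 18.7 with butyrate and 19.1, 17.3, 18.00 and 18.5 with both. Only both agents against IL-1β was called (log2 fold change 0.26, SE 0.074, edgeR's adjusted p = 0.00823), the libraries overlapping, and the call was lost in 9 of 14 alternatives. The L-type gene Cacna1c (ENSMUSG00000051331, chromosome 6, 118587240 to 119196418, minus strand) gave 158, 131, 143 and 134 CPM in control, 156, 125, 134 and 145 with IL-1β, 133, 127, 115 and 124 with butyrate and 131, 113, 114 and 119.8 with both. Both agents lowered it against control (log2 fold change -0.24, SE 0.068, edgeR's adjusted p = 0.00625), lost in 6 of 14 alternatives, 5 of which left out 1 library of either condition. The R-type gene Cacna1e was at 1.23 to 1.62 CPM on average and was not called.

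The α2δ genes split. Cacna2d1 (ENSMUSG00000040118, chromosome 5, 15934691 to 16374511, plus strand) encodes an α2δ subunit that binds gabapentin and was the main α2δ gene here. It gave 279, 247, 251 and 242 CPM in control and 313, 274, 297 and 291 with IL-1β. With butyrate it gave 228, 222, 217 and 226, and with both agents 256, 254, 252 and 248. Butyrate libraries lay below control libraries, those with both agents lay below IL-1β, and IL-1β overlapped control. IL-1β raised it (log2 fold change 0.21, SE 0.048, edgeR's adjusted p = 0.00150, edgeR's adjusted p = 0.0112 without control replicate 4). Butyrate lowered it alone (log2 fold change -0.19, edgeR's adjusted p = 0.00346, up to 0.0262 in the 4 alternatives that lost it) and with IL-1β (log2 fold change -0.22, edgeR's adjusted p = 8.37e-04).

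Cacna2d2 and Cacna2d4 went the other way with butyrate. Cacna2d2 (ENSMUSG00000010066, chromosome 9, 107399612 to 107529343, plus strand) read 5.65, 6.17, 4.63 and 5.65 CPM in control, 5.84, 5.89, 5.55 and 6.93 with IL-1β, 8.89, 9.28, 6.58 and 8.04 with butyrate and 8.53, 7.72, 7.49 and 7.704 with both. Butyrate raised it (log2 fold change 0.57, SE 0.11, edgeR's adjusted p = 2.21e-04), and with IL-1β present the change was 0.37 (edgeR's adjusted p = 0.0108, not called). Cacna2d4 (ENSMUSG00000041460, chromosome 6, 119236526 to 119352407, plus strand) gave 4.34, 3.502, 4.44 and 3.68 CPM in control, 4.91, 4.09, 5.03 and 5.702 with IL-1β, 6.48, 6.71, 7.002 and 6.32 with butyrate and 6.903, 7.09, 8.19 and 8.14 with both. It rose by 0.73 with butyrate alone (SE 0.11, edgeR's adjusted p = 1.28e-05) and by 0.61 with IL-1β present (SE 0.11, edgeR's adjusted p = 8.11e-05) on the log2 scale. Cacna2d1 nevertheless kept 93.4 ± 0.385% of the α2δ pool in control and 89.5 ± 0.504% with butyrate (SD, n = 4). Cacna2d3, at 2.23 to 3.39 CPM on average, was not called.

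Of the 5 γ genes, Cacng7 and Cacng4 were called, in opposite directions. Cacng7 (ENSMUSG00000069806, chromosome 7, 3332955 to 3368221, plus strand) had few reads, with counts of 7, 7, 8 and 16 in control and 4, 3, 6 and 5 with IL-1β. Butyrate gave counts of 21, 31, 32 and 28 and both agents 41, 22, 22 and 29. The butyrate libraries, with and without IL-1β, all lay above the others. At least 10 counts were reached in 1 of 8 libraries without butyrate and in 8 of 8 with it, so Cacng7 was kept through the conditions in which it was high, and its fitted log2 fold changes of 1.63 with butyrate alone (SE 0.30) and 2.55 when butyrate joined IL-1β (SE 0.34) are given as a description. Cacng4 (ENSMUSG00000020723, chromosome 11, 107732357 to 107794557, minus strand) gave 5.23, 5.17, 5.59 and 4.92 CPM in control, 3.77, 4.04, 3.58 and 3.43 with IL-1β, 4.07, 4.397, 3.61 and 3.57 with butyrate and 3.25, 3.395, 3.72 and 2.65 with both, and each treated library lay below each control library. IL-1β lowered it (log2 fold change -0.50, SE 0.12, edgeR's adjusted p = 0.00176, edgeR's adjusted p = 0.0116 without IL-1β replicate 4) and so did both agents (log2 fold change -0.68, edgeR's adjusted p = 3.37e-05), while the call with butyrate alone (-0.42, edgeR's adjusted p = 0.00740) was lost in 9 of 14 alternatives. Cacng2, Cacng3 and Cacng8 were not called.

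**Figure D3:**
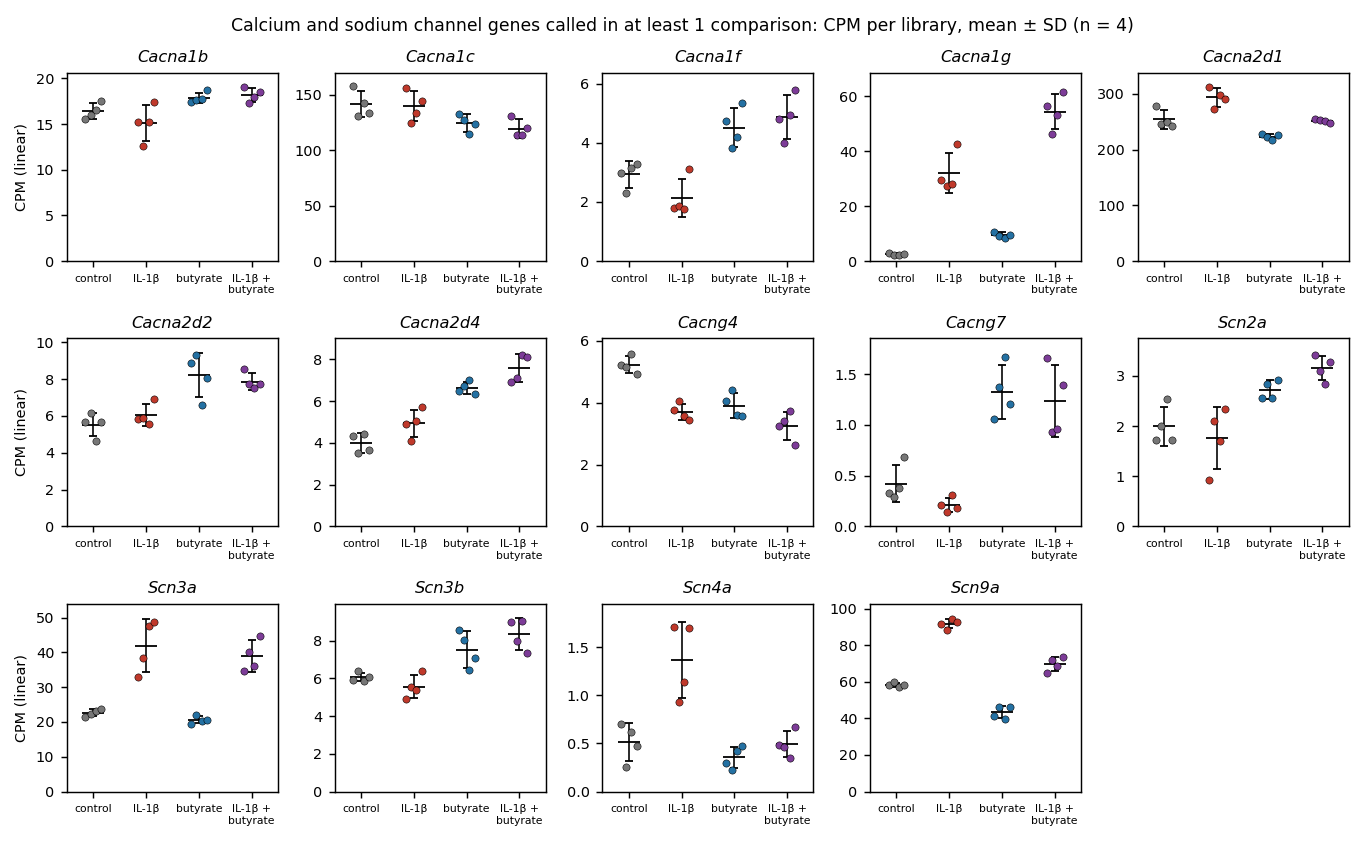
CPM (linear axes from 0) in each of 16 libraries for 14 of the members called in at least 1 comparison. Points are libraries, bars the mean and SD of 4. The conditions of Cacna1g and Scn9a do not overlap, and those of Cacna1b, Cacna1c and Cacna2d1 lie close together.

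The β subunits of sodium channels carry an extracellular immunoglobulin domain. Scn3b, a gene of this class (ENSMUSG00000049281, chromosome 9, 40269217 to 40291618, plus strand), gave 5.93, 6.38, 5.88 and 6.08 CPM in control, 4.91, 5.55, 5.39 and 6.39 with IL-1β, 8.59, 8.04, 6.43 and 7.05 with butyrate and 9.02, 7.98, 9.07 and 7.37 with both. It rose with both agents against IL-1β (log2 fold change 0.58, SE 0.10, edgeR's adjusted p = 1.03e-04) and against control by 0.46 (edgeR's adjusted p = 5.72e-04). Scn2b was at 1.18 to 2.10 CPM on average and was not called, and Scn4b stayed at 3 to 12 counts.

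The highest sodium channel pore gene in control was Scn9a, followed by Scn8a and Scn3a. Scn9a (ENSMUSG00000075316, chromosome 2, 66480080 to 66634962, minus strand) gave 58.1, 59.9, 57.1 and 58.3 CPM in control and 91.8, 88.5, 94.2 and 92.9 with IL-1β. Butyrate gave 41.5, 46.1, 39.6 and 46.3 and both agents 64.7, 71.98, 68.9 and 73.6. No 2 conditions overlapped, with butyrate lowest, then control, both agents and IL-1β. IL-1β raised it (log2 fold change 0.65, SE 0.051, edgeR's adjusted p = 6.78e-11), and butyrate lowered it alone (log2 fold change -0.43, SE 0.053, edgeR's adjusted p = 5.73e-07) and with IL-1β (log2 fold change -0.40, SE 0.050, edgeR's adjusted p = 8.22e-07). An antisense gene, Gm13629, shares 180 of its exon bases (1.41%), and without a stated strand setting their reads cannot be told apart. The same holds for 16% of the exon bases of Cacnb4 (with A430018G15Rik), 5.86% of Cacng2 (with A730060N03Rik) and 4.67% of Cacna1d (with Chdh). It also holds for 4.67% of Cacnb2 (with Gm10849, beside smaller overlaps), 3.81% of Cacna1a (with Gm16183) and 1.03% of Cacna2d2 (with Gm17141). Small parts of Cacnb1 and Cacna1h overlapped genes of the opposite strand too.

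Scn3a (ENSMUSG00000057182, chromosome 2, 65457118 to 65567627, minus strand) read 21.4, 22.4, 23.03 and 23.7 CPM in control, 32.8, 38.3, 47.5 and 48.8 with IL-1β, 19.5, 22.1, 20.3 and 20.7 with butyrate and 34.7, 40.1, 35.95 and 44.8 with both. Libraries with IL-1β lay above those without it, and butyrate overlapped its comparator both times. IL-1β raised it (log2 fold change 0.89, SE 0.11, edgeR's adjusted p = 8.83e-06), and the butyrate changes of -0.13 and -0.11 were not called (edgeR's adjusted p = 0.455 and 0.454). Scn8a, a channel of the axon initial segment of neurons, averaged 43.0 to 45.4 CPM and was not called. In the pool of 8 pore genes the share of Scn9a was 46.7 ± 1.55% in control, 51.5 ± 2.82% with IL-1β, 40.1 ± 1.93% with butyrate and 44.9 ± 1.43% with both, and that of Scn8a 28.9 ± 1.43%, 20.1 ± 1.27%, 32.2 ± 1.61% and 23.7 ± 1.49% (SD, n = 4). The pool summed to 9.78 ± 0.194, 14 ± 1.03, 8.47 ± 0.474 and 12.2 ± 0.809 CPM per kilobase in the same order.

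**Figure D4:**
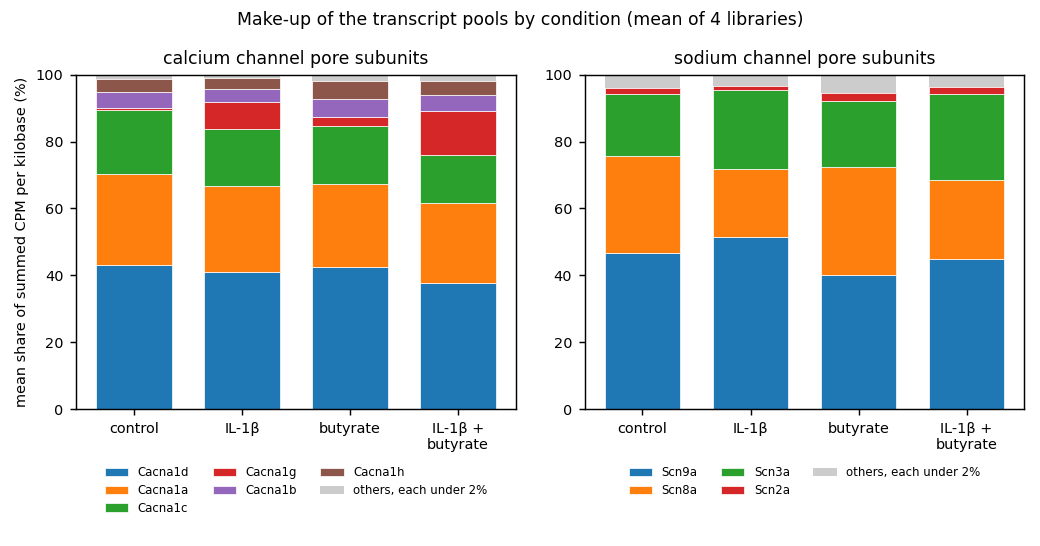
Mean share (%) of each gene in the summed CPM per kilobase of the calcium channel pore and sodium channel pore genes, by condition (4 libraries each), with genes under 2% in grey. Cacna1g grows from 0.698% to 13.4% of the calcium pore pool.

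Scn4a and Scn2a were low and were each called in 2 comparisons. Scn4a, the skeletal muscle channel gene (ENSMUSG00000001027, chromosome 11, 106318592 to 106353288, minus strand), had counts of 15, 6, 13 and 11 in control and 33, 19, 22 and 47 with IL-1β. Its counts were 6, 5, 8 and 11 with butyrate and 12, 11, 8 and 14 with both agents. IL-1β libraries lay above the others in CPM. IL-1β raised it (log2 fold change 1.44, SE 0.30, edgeR's adjusted p = 5.32e-04) and butyrate lowered it on top of IL-1β (log2 fold change -1.48, SE 0.30, edgeR's adjusted p = 4.23e-04). Scn2a, a channel gene of neurons (ENSMUSG00000075318, chromosome 2, 65620771 to 65767447, plus strand), gave 1.73, 2.001, 2.53 and 1.71 CPM in control, 0.931, 2.09, 1.71 and 2.35 with IL-1β, 2.56, 2.84, 2.56 and 2.93 with butyrate and 3.41, 3.098, 2.85 and 3.27 with both. It rose with both agents against IL-1β by 0.80 (SE 0.19, edgeR's adjusted p = 0.00170), while the call against control (0.67, edgeR's adjusted p = 0.00463) was lost in 6 of 14 alternatives, each of which left out 1 library. Scn1a, Scn7a and Scn11a were not called.

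Whether butyrate acted differently with IL-1β present was tested as the difference of both butyrate effects. By edgeR without a replicate term, 0 of the 33 members were called, beside 0.0430% of all genes with a positive and 0.0538% with a negative difference. An unadjusted p under 0.05 was reached by 3 members. With the replicate number as a block, a pairing that the labels do not state, edgeR called 2 members with a negative difference. Calls over all genes were then 132 in place of 18. DESeq2 without a block called 2 members, Cacna1g among them. For Cacna1g the difference was -1.18 on the log2 scale (SE 0.26, edgeR's adjusted p = 0.108, not called), the fitted fold change with butyrate being smaller with IL-1β. This holds for fold changes only. Mean CPM went from 2.49 to 9.51 with butyrate alone and from 31.9 to 54.3 with butyrate on top of IL-1β. Without IL-1β replicate 4, the highest Cacna1g library of its condition, edgeR called Cacna1g too. For Cacna1f the difference was 0.52 (SE 0.24, edgeR's adjusted p = 0.640).

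Proteins that bind calcium channels were taken as a list of 16 genes, of which 14 were tested. IL-1β raised 2 (14.3%) and lowered 1 (7.14%), butyrate raised 1 (7.14%) and lowered 2 (14.3%), butyrate with IL-1β raised 2 (14.3%) and lowered 2 (14.3%), and both agents against control raised 5 (35.7%) and lowered 1 (7.14%), beside 11.2% and 6.59%, 8.53% and 11.4%, 8.41% and 11.1%, and 15.8% and 14.8% of all genes tested. The median log2 fold change was 0.05, 0.04, 0.07 and -0.01. Rrad, a small GTPase of the RGK family that binds β subunits and reduces calcium current, was low, at 0.179 ± 0.139 CPM in control, 0.716 ± 0.218 with IL-1β, 0.354 ± 0.134 with butyrate and 1.10 ± 0.239 with both (SD, n = 4). Its counts reached 10 in 0 of 4 control libraries and in 4 of 4 with IL-1β, so that it passed the filter through the conditions in which it was high. Its fitted log2 fold change with IL-1β of 1.95 (SE 0.42) is therefore a description. The raised counts of this list for IL-1β and for both agents against control include Rrad. Rem2 of the same family rose with IL-1β and averaged 15.1 CPM in control and 24.7 with the cytokine (log2 fold change 0.71, edgeR's adjusted p = 9.44e-04). Stac2, an adaptor of L-type channels, was lowered by IL-1β (log2 fold change -1.28, edgeR's adjusted p = 3.34e-06), from 2.86 to 1.18 CPM. Rims1, an active zone scaffold, rose with both agents against IL-1β by 1.32 (edgeR's adjusted p = 5.80e-05), and Tmem37, a γ-like protein, against control by 0.69 (edgeR's adjusted p = 0.00419).

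Partners of sodium channels, with the sodium leak channel Nalcn, were a list of 15 genes. Of these, 13 were found by their symbol in GENCODE M21 and 12 tested, while Nalf1 and Nalf2 were not found under these symbols. IL-1β raised 3 (25.0%) and lowered 0, butyrate raised 3 (25.0%) and lowered 2 (16.7%), butyrate with IL-1β raised 2 (16.7%) and lowered 2 (16.7%), and both agents against control raised 4 (33.3%) and lowered 2 (16.7%), beside the same shares of all genes. Their median log2 fold change was 0.04, -0.08, -0.00 and 0.11. Fgf11, of the family of fibroblast growth factor homologous factors that bind the tails of sodium channels, gave 2.33, 1.84, 2.01 and 1.84 CPM in control, 2.12, 2.09, 2.02 and 2.24 with IL-1β, 8.94, 8.79, 8.88 and 7.44 with butyrate and 8.04, 8.53, 9.72 and 9.29 with both. Libraries with butyrate lay above those without it, and it rose by 2.09 alone (SE 0.11, edgeR's adjusted p = 3.00e-13) and by 2.06 with IL-1β (SE 0.11, edgeR's adjusted p = 2.36e-13). Nfasc and Nrcam, adhesion molecules that hold sodium channels at the axon initial segment, rose with IL-1β by 0.88 (edgeR's adjusted p = 8.85e-13) and 0.78 (edgeR's adjusted p = 1.60e-04). Nedd4l, a ubiquitin ligase that acts on sodium channels, rose by 0.39 with IL-1β (edgeR's adjusted p = 1.24e-07). Nalcn averaged 59.2 ± 1.65 CPM in control, 56.7 ± 2.57 with IL-1β, 43.7 ± 1.60 with butyrate and 39.9 ± 1.77 with both (SD, n = 4). Butyrate lowered Nalcn alone (log2 fold change -0.44, edgeR's adjusted p = 6.92e-08) and with IL-1β (log2 fold change -0.51, edgeR's adjusted p = 6.40e-09).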

How the data were processed

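RNA of cultured mouse islets was sequenced in 16 single-end libraries. The authors mapped the reads to mm10 with STAR 2.5.3a (bcl2fastq 2.19.1, FastQC 0.11.7, MultiQC 1.7 and DESeq2 are further tools in the submitters' processing notes), and the deposited values are whole-number counts per gene without normalization. The annotation release, strand setting and read filters are not given in the sources used here. Intervals were not computed from counts, and the reads carried no molecular identifiers. No 2 libraries of a condition agreed within counting noise.

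In R 4.3.3, edgeR 4.0.16 removed low genes (filterByExpr, minimum count 10), scaled by TMM and fitted 1 robust quasi-likelihood model with 4 conditions to 16 libraries, without a replicate term. The p-values were adjusted by Benjamini-Hochberg over 18587 genes, with calls below 0.01. Symbols and exon lengths came from GENCODE M21 (52489 of 52636 identifiers matched). Promoter windows were from RefSeq. The code was tested on simulated data. Alternatives were upper-quartile scaling, library size alone, DESeq2 1.42.0, no filter, only the conditions compared, a replicate block and a threshold of 0.05. As a further alternative, each library of the conditions compared was left out in turn. Some genes are not reported here by name, although the counts over members and lists include them. Values per library are given for the other called members and the 5 highest per kilobase in control, and for up to 5 called genes of each partner list by largest change. The members and lists were chosen with earlier results of these data known.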

Additional observations from a re-analysis of the deposited data

Results flagged for a closer look

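In 3 of 72 sets of 4 libraries (18 members in 4 conditions) 1 library stood apart from the other 3 of its condition by Dixon's criterion, which chance alone meets in about 1 in 20 sets. Cacna1a was at 100.4 CPM in control replicate 2, against 111.3 to 113.3 CPM in the other control libraries. Cacna1f was at 3.104 CPM in IL-1β replicate 4, against 1.76 to 1.85 CPM in the others. Cacna1g was at 42.7 CPM in IL-1β replicate 4, against 27.2 to 29.7 CPM in the others.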

How the results depend on the processing

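Of 39 calls of members, 29 held in every alternative listed in the processing summary and 10 were lost in at least 1. None of the member calls changed direction. The number lowered by IL-1β was 1 and became 2 at an adjusted p under 0.05. The number lowered by butyrate alone was 3, and 1 with upper-quartile scaling. The number lowered by both agents against control was 2, and 1 with library size alone. For the difference of the butyrate effects the negative calls were 0, but 2 with DESeq2, 1 with no filter and 1 at an adjusted p under 0.05. Leaving out 1 library gave 5 to 6 raised and 1 to 2 lowered for IL-1β, 5 to 6 and 1 to 3 for butyrate, 6 to 8 and 3 to 4 for butyrate with IL-1β, 9 to 10 and 1 to 2 for both agents against control, and 0 and 0 to 1 for the difference. The cause was not tested. Neither the labels nor the methods say that equal replicate numbers pair the libraries, and 17 of 24 same-numbered pairs had correlated deviations above 0.1, with 21 of 24 correlating best with their own number. With the replicate number as a block, members lowered by butyrate became 5 and negative differences 2, and calls over all genes went from 3311 to 4537 for IL-1β and from 3697 to 4879 for butyrate, and from 18 to 132 for the difference of the butyrate effects. At these depths Scn4b, Cacng3, Cacng8, Cacng7 and Scn4a rest on few counts each.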

Other observations

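Genes of calcium stores, pumps and exchangers were a list of 24, of which 23 were tested. IL-1β raised 3 (13%) and lowered 3 (13%), butyrate raised 6 (26.1%) and lowered 1 (4.35%), butyrate with IL-1β raised 6 (26.1%) and lowered 1 (4.35%), and both agents against control raised 6 (26.1%) and lowered 2 (8.70%), beside 11.2% and 6.59%, 8.53% and 11.4%, 8.41% and 11.1%, and 15.8% and 14.8% of all genes tested. The median log2 fold change was 0.02, 0.07, 0.07 and 0.10. Slc8a2, a sodium-calcium exchanger, averaged 5.92 ± 0.512 CPM in control, 7.35 ± 0.993 with IL-1β, 11.9 ± 1.70 with butyrate and 13.9 ± 1.76 with both (SD, n = 4), and rose with butyrate by 1.01 alone (edgeR's adjusted p = 2.15e-07) and by 0.90 with IL-1β (edgeR's adjusted p = 6.15e-07). Ryr3, a calcium release channel of the endoplasmic reticulum, rose by 0.84 and 0.78 (edgeR's adjusted p = 3.32e-05 and 7.38e-05), and Ryr1 by 0.87 with IL-1β present (edgeR's adjusted p = 0.00916). Orai2, a store-operated channel gene, rose with IL-1β by 0.85 (edgeR's adjusted p = 2.32e-10) and fell when butyrate was added (log2 fold change -0.34, edgeR's adjusted p = 3.27e-04). Slc8b1, the mitochondrial exchanger, rose with both agents against control by 0.78 (edgeR's adjusted p = 4.19e-06).

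Of 6 genes of pacemaker and ATP-sensitive potassium channels, IL-1β raised 2 (33.3%) and lowered 2 (33.3%), butyrate raised 3 (50.0%) and lowered 0, butyrate with IL-1β raised 3 (50.0%) and lowered 0, and both agents against control raised 4 (66.7%) and lowered 1 (16.7%), beside the same shares of all genes. Hcn2 and Hcn3, hyperpolarisation-activated channel genes, rose with butyrate alone by 0.36 and 0.31 (edgeR's adjusted p = 1.80e-06 and 8.52e-04), whereas Hcn4 was lowered by IL-1β (log2 fold change -0.30, edgeR's adjusted p = 4.02e-04). Abcc8, the sulfonylurea receptor, rose in all 4 comparisons, by 0.20 with IL-1β, 0.31 with butyrate, 0.23 with butyrate on top of IL-1β and 0.43 with both against control (edgeR's adjusted p of 0.00592 or less).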
